A study of Mus musculus with 12 samples.

Results

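Gas6, its sister ligand Pros1, the receptors Axl, Tyro3 and Mertk, and 5 transcription factors or secreted proteins known from studies of tumour dormancy (Nr2f1, Bhlhe41, Sox2, Sox9 and Thbs1) were followed across dormant and growing breast cancer cells. These 10 genes were picked by symbol out of 54146 genes in the table, with earlier results of these data known. The cells were D2A1, a mouse mammary carcinoma line, made to express a histone tagged with green fluorescent protein (H2B-GFP), stained with the membrane dye CellVue Claret and injected into the tail vein of female mice aged 6 to 8 weeks. GFP-positive cells were sorted from the lungs 12 days later by the methods (14 days by the results text) in aliquots of 50 cells, and those that still held the dye, which is thinned out by division, were the dormant cells, while those without it were the growing cells. The hosts were WT mice, which the figure legends describe as flox controls (Tgfbr2 fl/fl), or KO mice in which Tgfbr2, the type II receptor for transforming growth factor beta, was deleted by a Cre driven from the lysozyme gene, that is in the myeloid cells of the host. The tumour cells themselves carried no deletion of this gene in any group, and all 4 groups came from the same line. With 3 libraries for each state and host there were 4 groups, called by state and host (dormant or growing, WT or KO). The figure legends describe the replicates as separate mice, which the labels do not state. The p-values measure the spread between libraries within groups, by an error for each gene that all 4 groups share.

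Gas6 is a secreted, vitamin K-dependent protein that binds phosphatidylserine with its amino-terminal end and the receptor tyrosine kinases Tyro3, Axl and Mertk with its carboxy-terminal end. Pros1 (protein S), better known as an anticoagulant, shares this layout and activates Tyro3 and Mertk. In bone marrow, Gas6 and its receptors have been linked to the arrest of disseminated tumour cells, and the study used the GAS6 protein as a marker of dormancy. Nr2f1 is an orphan nuclear receptor that drives a retinoic acid-responsive quiescence programme with Sox9 among its targets, Bhlhe41 is a circadian repressor linked to quiescence, Sox2 and Sox9 are stem and progenitor cell factors, and Thbs1 (thrombospondin-1) is a matrix protein released by quiet endothelium.

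Values were TPM, a share of the transcripts of a library corrected for gene length, so levels of different genes can be set side by side. Of the libraries used, batch 1 held the WT and batch 2 the KO libraries, so host and batch cannot be told apart in these 12. The table also holds 6 columns named as WT libraries of batch 2, which match no labelled sample and were not used here. Each comparison of dormant with growing cells lay within 1 batch. The dormant WT libraries were sparse. Of 3218 genes with a mean of 5 to 20 TPM in growing libraries, between 20% and 34.6% were listed at 0 in a dormant WT library, against 6.31% to 7.86% in dormant KO and 1.58% to 1.9% in growing libraries, although none of 16 widely expressed genes was at 0 in any library. The correlation of replicates across genes ran from 0.666 to 0.715 in dormant WT, 0.866 to 0.882 in dormant KO, 0.949 to 0.952 in growing WT and 0.914 to 0.922 in growing KO. The summed TPM of 13 genes used as markers of D2A1 and mammary carcinoma cells (Spp1, Lgals1, Vim, Krt8, Krt18 and others) lay between 37424 and 54688 in dormant WT and in both growing groups, and between 3045 and 3426 in dormant KO. Spp1 was the highest of these genes in every library, and not all of them fell. Krt18 had 166.51, 248.67 and 158.54 TPM in dormant KO and 179.29, 130.6 and 231.14 in dormant WT. Epcam had 3.42, 0.27 and 5.34 TPM in dormant KO and at most 0.09 in dormant WT. Counts for the list are given below with the other markers. Krt5 was listed at 0 in 10 of the 12 libraries and Esr1, the oestrogen receptor, in 7.

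Gas6 (ENSMUSG00000031451.6, chr8:13465374-13494490, minus strand, GRCm38) was highest in dormant cells of KO hosts. It stood at 51.99, 89.46 and 46.17 TPM in dormant KO, at 9.93, 2.83 and 3.42 in growing KO, at 0.32, 0 and 0 in dormant WT and at 0.30, 0 and 0.02 in growing WT. No library of dormant KO overlapped with any other group, and no growing KO library overlapped with a WT library. In the dormant KO libraries Gas6 ranked above 87.9%, 90.9% and 87.1% of all genes with a value above 0. The mean of 62.5 ± 23.5 TPM (SD, n = 3) stood beside 5.39 ± 3.94 in growing KO, where replicate 1 was the highest library. The group means of dormant WT (0.107 ± 0.185) and growing WT (0.107 ± 0.168) did not differ beyond their spread. Tmem255b, which overlaps Gas6 on the opposite strand, had 2.87, 7.16 and 8.0 TPM in dormant KO and 0 in the other 9 libraries, and since the use of strand in counting was not stated, reads of the pair could not be kept apart with certainty.

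Pros1 (ENSMUSG00000022912.8, chr16:62854307-62929346, plus strand) did not share this pattern. Its levels were 18.02, 16.44 and 24.94 TPM in dormant KO, 7.26, 24.72 and 25.48 in growing KO, and among WT hosts 4.77, 14.31 and 14.58 in growing and 0, 1.02 and 4.50 in dormant cells. Dormant WT was the low group, with every library below those of the other groups, and the other groups overlapped in order of their means (19.8 ± 4.52, 19.2 ± 10.3 and 11.2 ± 5.59). The low values of Pros1 therefore fell in the group in which 20%, 34.6% and 28.7% of genes of like level were listed at 0, and the part of this sparseness in the Pros1 result was not tested.

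The promoters of these ligands are shown because both genes rose in dormant cells with the KO host and because the study dealt with KLF4 sites (letters CCCCACCC) in promoters of other genes. There it measured KLF4 binding by chromatin immunoprecipitation in D2A1 cells that overexpressed KLF4. The sequences are the 250 bases upstream of each RefSeq start (GRCm38.p6), 5′ to 3′ on the gene's strand, with matches to CCCCACCC on either strand in capitals. The Gas6 window is chr8:13494536-13494785 on the minus strand and the Pros1 window chr16:62854057-62854306 on the plus strand.
Gas6: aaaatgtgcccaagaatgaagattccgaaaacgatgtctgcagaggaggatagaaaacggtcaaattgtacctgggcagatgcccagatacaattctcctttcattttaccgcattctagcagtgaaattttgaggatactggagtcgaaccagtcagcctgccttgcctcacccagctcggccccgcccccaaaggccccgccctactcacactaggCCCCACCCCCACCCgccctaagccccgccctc
Pros1: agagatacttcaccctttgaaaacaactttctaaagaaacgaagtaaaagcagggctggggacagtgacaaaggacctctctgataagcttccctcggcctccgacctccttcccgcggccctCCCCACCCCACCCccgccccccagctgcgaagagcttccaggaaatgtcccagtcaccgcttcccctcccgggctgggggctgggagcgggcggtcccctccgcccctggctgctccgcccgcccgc
Each capital stretch holds 2 overlapping matches, with their first bases at -32 and -26 in Gas6 and at -127 and -122 in Pros1 from the start. Of 32851 mouse promoters of the same length, 9.05% held at least 1 match on either strand. RefSeq promoters were matched for 8 of the 10 genes. Nr2f1 had 1 match on the other strand at -104 in the window of 1 of its starts, whereas Axl, Tyro3, Mertk, Bhlhe41 and Sox2 had none. Of 3 other motifs searched on both strands, the nuclear receptor motif AGGTCA occurred in Sox2 (at -244; 14% of all promoters), the E-box CACGTG, which Bhlhe41 itself binds, in Bhlhe41 (at -153; 6.02% of all promoters), and AACAAT, a core bound by SOX proteins, in none of the 8 (9.42% of all promoters). A match describes the letters and is not a measured site.

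Axl (ENSMUSG00000002602.16, chr7:25757273-25788705, minus strand) was the main receptor transcript in every library. It had 39.34, 14.93 and 42.02 TPM in dormant WT, 13.65, 21.76 and 16.96 in dormant KO, 20.84, 29.45 and 21.54 in growing cells of WT hosts and 29.40, 18.35 and 23.77 in growing cells of KO hosts. The groups overlapped throughout, with means of 32.1 ± 14.9, 17.5 ± 4.08, 23.9 ± 4.78 and 23.8 ± 5.53 TPM. Axl made up between 78.9% and 100% of the summed TPM of the receptors in each library. Mertk (ENSMUSG00000014361.5, chr2:128698956-128802894, plus strand), a receptor best known from phagocytes that clear dead cells, had 0.25, 0.02 and 11.26 TPM in dormant WT, 2.38, 0.87 and 0.11 in dormant KO, 0, 0.83 and 1.41 in growing cells of WT hosts and 0, 0 and 0.03 in growing cells of KO hosts. Its highest value was that of dormant WT replicate 3, and the other 2 libraries of that group were near 0. Tyro3 (ENSMUSG00000027298.17, chr2:119797733-119818104, plus strand) was low in every group, at 0, 0.02 and 0 TPM in dormant WT, 0, 0.62 and 0 in dormant KO, 0.44, 0.87 and 0.19 in growing cells of WT hosts and 0.05, 0 and 1.76 in growing cells of KO hosts. Tyro3 reached 1 TPM in a single library and was therefore not tested.

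Set against the receptors, the ligands changed their share from group to group. The summed TPM of Gas6 and Pros1 was 70.01, 105.90 and 71.11 in dormant KO, 17.19, 27.55 and 28.90 in growing KO, and among WT hosts 5.07, 14.31 and 14.60 in growing and 0.32, 1.02 and 4.50 in dormant cells. Divided by the summed TPM of Axl, Tyro3 and Mertk in the same library, this gave ratios of 4.37, 4.55 and 4.17 in dormant KO, 0.584, 1.5 and 1.13 in growing KO, and among WT hosts 0.238, 0.459 and 0.631 in growing and 0.00808, 0.0681 and 0.0845 in dormant cells. Ligand transcripts outnumbered receptor transcripts in all dormant KO libraries and in 2 of the growing KO libraries, and in no WT library. Gas6 made up 74.3%, 84.5% and 64.9% of the ligand sum in dormant KO, but 57.8%, 10.3% and 11.8% in growing KO, where Pros1 was the larger part in 2 of 3 libraries. In bulk libraries, fewer cells of a type and less RNA per cell cannot be told apart, so a ratio over 50 sorted cells does not say which cells hold the ligand and which the receptor.

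**Figure D1:**
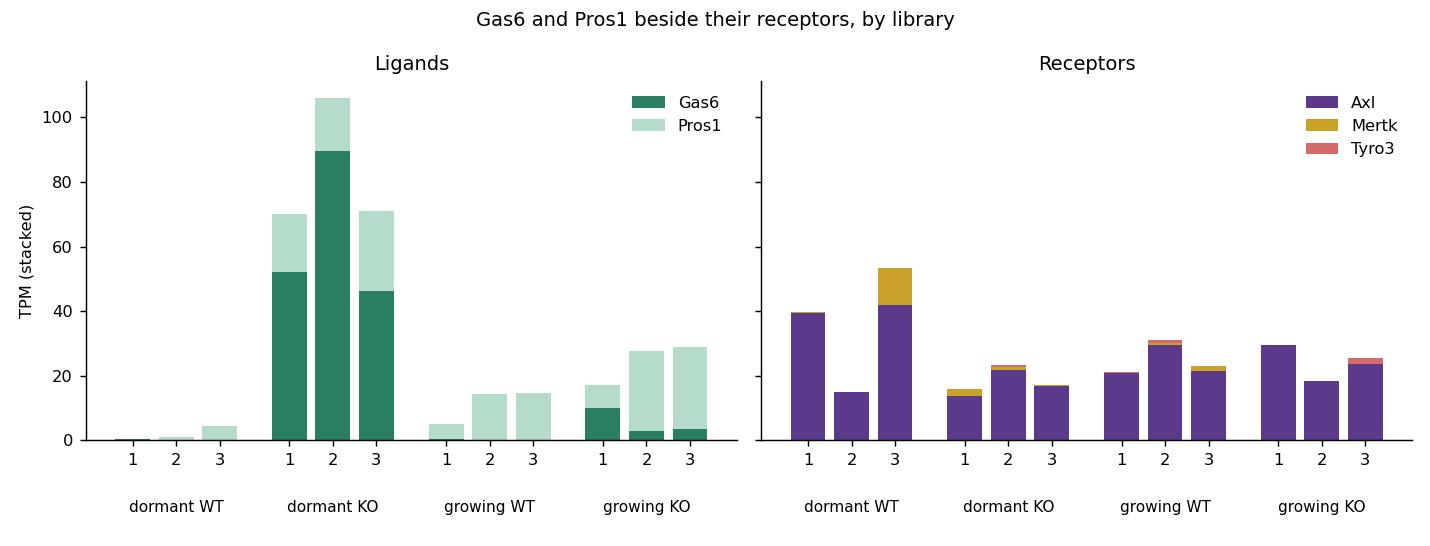
Stacked TPM of the ligands (left) and receptors (right) in each of the 12 libraries, with replicates 1 to 3 of a group side by side. Ligand bars are tallest in dormant KO, where they reach 70.01 to 105.90 TPM and are mostly Gas6, while the receptor bars are mostly Axl in every library.

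Nr2f1 (ENSMUSG00000069171.14, chr13:78188973-78199757, minus strand), the nuclear receptor of the quiescence programme, was at or near 0 in the libraries labelled dormant. It was listed at 0 in all 3 dormant WT libraries, at 0, 0 and 0.04 TPM in dormant KO, 0.57, 0.03 and 3.11 in growing cells of WT hosts and 5.66, 0 and 0 in growing cells of KO hosts. Only 2 libraries, both growing, reached 1 TPM, so Nr2f1 was not tested. Of 2914 genes with a mean of 1 to 3 TPM in growing libraries, between 40.6% and 53.8% were listed at 0 in a dormant WT library and between 20.8% and 25.2% in a dormant KO library, so a gene of this level was often listed at 0 there.

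Bhlhe41 (ENSMUSG00000030256.11, chr6:145858243-145865558, minus strand) had its higher levels in the dormant libraries of each host, but the differences did not pass the test. It had 12.63, 52.43 and 42.97 TPM in dormant WT, 9.31, 10.26 and 8.87 in growing WT, 13.26, 10.09 and 13.92 in dormant KO, and 3.13, 4.16 and 3.43 in growing KO. Dormant and growing libraries did not overlap in either host, and growing KO lay below growing WT without overlap. Dormant WT replicate 1, at 12.63 TPM, lay within the range of the dormant KO libraries.

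Sox9 (ENSMUSG00000000567.5, chr11:112782224-112787760, plus strand) was nearly lost from dormant KO. It had 0.03, 0.24 and 0.24 TPM there, against 12.95, 4.12 and 21.70 in dormant cells of WT hosts, 7.60, 9.90 and 10.96 in growing cells of WT hosts and 4.90, 6.98 and 6.74 in growing cells of KO hosts. Dormant KO lay apart from every other group, and its mean of 0.17 ± 0.121 TPM compared with means of 12.9 ± 8.79 for dormant WT, 9.49 ± 1.72 for growing WT and 6.21 ± 1.14 for growing KO. The dormant WT libraries overlapped with both growing groups.

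Sox2 (ENSMUSG00000074637.7, chr3:34650405-34652461, plus strand), which lies inside the long noncoding gene Sox2ot, was at 0 in all 3 dormant WT libraries, at 1.25, 0 and 0.14 TPM in dormant KO, 0.54, 1.81 and 4.27 in growing cells of WT hosts and 1.36, 1.50 and 2.75 in growing cells of KO hosts. Dormant libraries lay below the growing libraries of the same host without overlap, at levels where zeros were frequent. Thbs1 (ENSMUSG00000040152.8, chr2:118111876-118127133, plus strand) varied most in dormant WT, with 15.81, 0.97 and 0.04 TPM, against 10.36, 6.77 and 3.34 in dormant KO, 2.60, 3.67 and 2.69 in growing cells of WT hosts and 2.88, 3.17 and 4.21 in growing cells of KO hosts. The dormant groups overlapped with each other and with the growing groups. Genes on the opposite strand overlap Thbs1 (Gm29233), Nr2f1 (A830082K12Rik), Bhlhe41 (Gm43909) and Mertk (Gm14011), with the same limit as for Tmem255b.

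**Figure D2:**
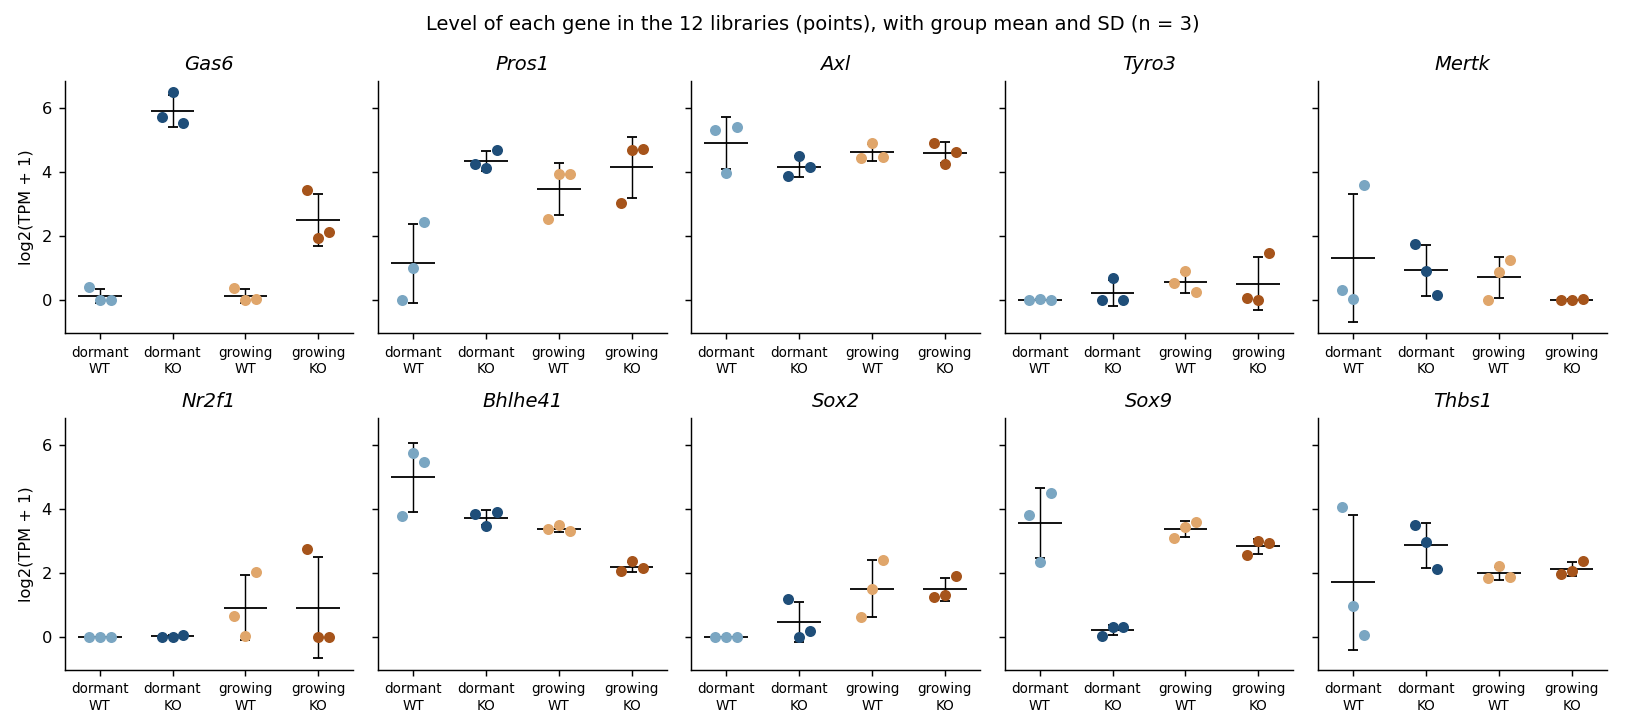
Level of each of the 10 genes in the 12 libraries on the log2(TPM + 1) scale, with points for libraries and bars for the group mean and SD (n = 3). Gas6 is high in dormant KO, Sox9 is low in dormant KO, Pros1 is low in dormant WT, and the Axl groups overlap.

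Within a group, the order of the genes changed with host and state. In dormant WT, Bhlhe41 (36 TPM) and Axl (32.1) led, and no neighbouring genes in the order were apart from each other. In dormant KO, Gas6 (62.5) stood above Pros1 (19.8) without overlap, while Pros1, Axl (17.5) and Bhlhe41 (12.4) overlapped in turn. In growing WT, Axl (23.9) stood above Pros1 (11.2) without overlap, and Gas6 was last. In growing KO, Axl (23.8) and Pros1 (19.2) overlapped, and Sox9 (6.21), Gas6 (5.39), Bhlhe41 (3.57) and Thbs1 (3.42) formed a run of overlapping neighbours.

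The comparison of hosts in dormant cells asked whether these genes differed with the deletion in host myeloid cells. Differences were fitted by limma on log2(TPM + 1) over 13002 genes, 8 of the 10 among them, and a gene was called at a Benjamini-Hochberg adjusted p of at most 0.05 and a difference of at least 1, two-sided. In dormant KO against dormant WT, 3 of the 8 genes were called, where 22.3% of all genes tested were called (12.9% higher and 9.39% lower). Of the calls over all genes, 1677 were higher and 1221 lower, against 2289 and 806 with median-ratio scaling and 1513 and 1508 with quantile normalization. Gas6 was higher by 5.80 ± 0.547 (log2 difference ± SE, adjusted p = 2.25e-05, limma), Pros1 higher by 3.20 ± 0.736 (adjusted p = 0.00779), and Sox9 lower, at -3.33 ± 0.584 (adjusted p = 0.00147). Libraries of the hosts did not overlap for these 3 genes, nor for 31.5% of all genes tested. The Pros1 call was lost when only the dormant libraries were fitted (adjusted p = 0.0575) and with array weights (0.0918). Axl, at -0.74, did not pass (adjusted p = 0.3, 95% interval -1.76 to 0.289), but passed without dormant WT replicate 2 (-1.20, adjusted p = 0.034), the library with the lowest Axl of its group. Bhlhe41, at -1.25 (adjusted p = 0.124), and Thbs1, at 1.16 (0.39), passed without dormant WT replicate 1, at -1.86 (0.00617) and 2.34 (0.0091). Leaving out a library changes both the group mean and the error of each gene. In that fit 5 of 8 genes and 28% of all genes were called. Mertk, at -0.39 (0.79), and Sox2, at 0.45 (0.559), did not pass.

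In growing cells, none of the 8 genes was called by limma between KO and WT hosts, where 0.977% of all genes were called (0.715% higher and 0.261% lower), and 2 had an unadjusted p under 0.05, as did 7.53% of all genes. These were Gas6, higher by 2.37 in KO hosts (adjusted p = 0.0824), and Bhlhe41, at -1.20 (adjusted p = 0.661). Both lay apart between hosts in all libraries, as did Sox9, at -0.54 (adjusted p = 1), and 23.9% of all genes tested lay apart in this comparison. Gas6 passed with a pseudocount of 0.1 (4.80, adjusted p = 0.0339), and Gas6 (2.32, adjusted p = 0.00461) and Bhlhe41 (-1.19, adjusted p = 0.0343) passed with array weights. The Axl difference was -0.01, with an interval of -1.04 to 1.01, so a change of up to about 1 log2 unit in either direction stays within the error.

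Between dormant and growing cells of WT hosts, none of the 8 genes was called by limma, where 7.51% of all genes were called (1.85% higher and 5.67% lower), and 3 had an unadjusted p under 0.05, as did 23.9% of all genes. Over all genes, 240 calls were higher and 737 lower, against 244 and 590 with median-ratio scaling and 489 and 478 with quantile normalization. Pros1 was at -2.32 (adjusted p = 0.077), Sox2 at -1.50 (0.0823) and Bhlhe41 at 1.60 (0.0959). All 3 lay apart between the states, as did 26.6% of all genes tested. Without dormant WT replicate 1, Bhlhe41 passed (2.21, adjusted p = 0.00533), and without dormant WT replicate 3, Pros1 passed (-2.97, adjusted p = 0.0214). Gas6 did not differ between the states of WT hosts beyond its error, with a difference of -0.0022 and an interval of -1.20 to 1.20.

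Between dormant and growing cells of KO hosts, 2 of the 8 genes were called, where 17.8% of all genes were called (8.31% higher and 9.48% lower). These were 1080 higher and 1233 lower, against 1491 and 663 with median-ratio scaling and 1263 and 958 with quantile normalization. Gas6 was higher in dormant cells by 3.42 ± 0.547 (adjusted p = 0.00105, limma) and Sox9 was lower, at -2.62 ± 0.584 (adjusted p = 0.00812). With a pseudocount of 5 the Sox9 call was lost (-1.11, adjusted p = 0.0622). Bhlhe41, at 1.55, just missed the threshold (adjusted p = 0.071) and passed in 6 of 23 alternatives, among them the fits without dormant WT replicate 1 and without dormant WT replicate 2. Libraries of the states lay apart for Gas6, Mertk, Bhlhe41, Sox2 and Sox9, and for 44.7% of all genes tested. Pros1, at 0.20, had an interval of -1.41 to 1.82 (adjusted p = 0.888). Axl was at -0.43 (adjusted p = 0.587) and changed sign to 0.14 with median-ratio scaling, which moved the median of all genes from -0.32 to 0.09.

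The interaction, that is the state difference in KO hosts less the state difference in WT hosts, asked whether a gene's link to the dormant label differed between hosts. Of the 8 genes, Gas6 alone was called (3.42 ± 0.773, adjusted p = 0.0156, limma), where 10.1% of all genes were called (6.18% positive and 3.91% negative; with median-ratio scaling 1130 and 300 in place of 803 and 509). That call was lost without growing WT replicate 1 (3.30, adjusted p = 0.0502), with a pseudocount of 0.1 (0.108), with the replicate block (0.0797) and with array weights (0.0547). Sox9, at -2.79 ± 0.826, just missed (adjusted p = 0.0548) and passed without dormant WT replicate 2 (-3.39, adjusted p = 0.00703), and Pros1, at 2.52 (0.165), passed without dormant WT replicate 3 (3.17, adjusted p = 0.0477). The Bhlhe41 interaction was -0.05 with an interval of -1.74 to 1.64 (adjusted p = 0.982).

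**Figure D3:**
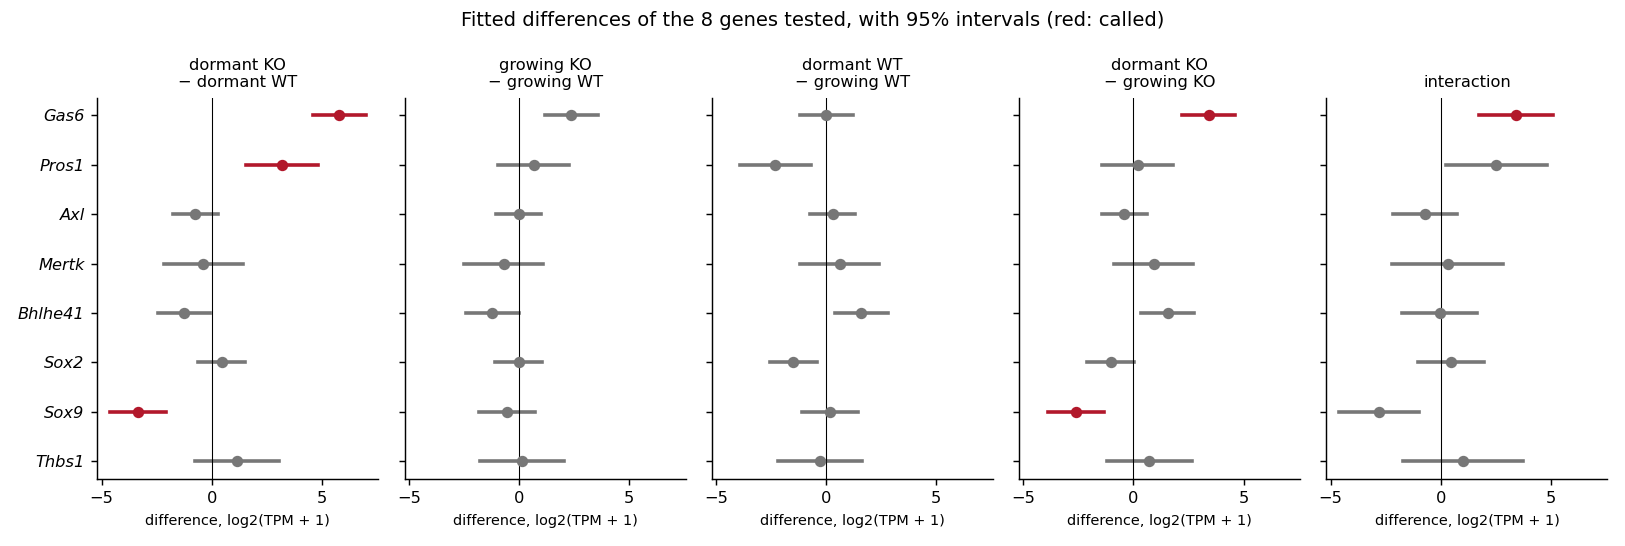
Fitted differences of the 8 tested genes in the 5 comparisons, on the log2(TPM + 1) scale, with 95% intervals, called genes in red, and the interaction at the right. Gas6 is called in 3 panels (5.80, 3.42 and 3.42), Sox9 in 2 (-3.33 and -2.62) and Pros1 in 1 (3.20).

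Markers of cells other than tumour cells moved with these results, and their counts stand beside 12.9% of all genes called higher in dormant KO than dormant WT and 8.31% higher than growing KO. In the mesothelium list (Msln, Upk3b, Wt1 and 9 others), which marks the lining of the lung, 12 of 12 genes were called higher in dormant KO against dormant WT and 11 of 12 against growing KO. Its summed TPM was 1252, 1913 and 1298 in dormant KO, 66.10, 90.24 and 115 in growing KO, 21.09 to 33.75 in growing WT and 0.59 to 55.64 in dormant WT. Upk3b, Wt1 and Lrrn4 were listed at 0 in every WT library while Msln was above 0 in 4 of them. The mean of the list in dormant KO was 16.4 times that in growing KO. The endothelial list (10 of 12 called higher in dormant KO than dormant WT) summed to 1164 to 1184 TPM in dormant KO, 55.18 to 70.94 in growing KO, 14.16 to 18.41 in growing WT and 16.20 to 160 in dormant WT. The fibroblast and smooth muscle list (6 of 10 tested) summed to 1900 to 2202, 345 to 412, 69.74 to 111 and 117 to 211 TPM in the same order. Within it Dcn was at 1093.75 to 1324.03 TPM in dormant KO, whereas Lum had 2.95, 12.39 and 0.01 TPM there against 48.46, 0 and 71.78 in dormant WT. The alveolar type 2 list (9 of 12) summed to 40295 to 42601, 466 to 477, 58.56 to 103 and 78.30 to 149 TPM, of which Sftpc made up most. The macrophage and monocyte list (4 of 15 tested) summed to 5631 to 6043, 319 to 388, 105 to 141 and 2610 to 2990 TPM, so it was high in both dormant groups, and 10 of 15 were called higher in dormant than in growing WT (1.85% of all genes). Platelet and megakaryocyte genes (7 of 7 tested called higher in dormant KO than dormant WT) summed to 632 to 824, 13.92 to 46.03, 6.07 to 19.9 and 0.19 to 169 TPM. All 6 of these lists were highest in dormant KO by their sums. Within the macrophage list C1qa had 117.38 to 140.88 TPM in dormant KO against 161.39 to 322.79 in dormant WT. C1qb had 134.84 to 186.1 against 189.44 to 296.11 TPM, though no gene of the list was called lower. In the mesothelium, fibroblast and alveolar type 2 lists every growing KO library lay above every WT library, as for Gas6. The macrophage list was second in dormant WT, unlike Gas6, and in the endothelial and platelet lists the dormant WT and growing KO libraries overlapped. The part of these lists in the Gas6 and Pros1 results, and in those of the other genes given below, was not tested.

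The remaining marker lists were read in the same way. Alveolar type 1 genes summed to 1745 to 2155 TPM in dormant KO and 313 to 446 elsewhere, club and ciliated cell genes to 2135 to 2711 and 8.59 to 1190, neutrophil genes to 4069 to 4371 and 62.46 to 929, and T, NK and B cell genes to 189 to 327 and 0.02 to 30.92. The low Sox9 of dormant KO came with low values of the D2A1 and mammary carcinoma list, whose mean was 14.4 times lower than in dormant WT (5.28 times without Spp1 and Akr1c18), with 4 of 10 genes tested called lower and 1 higher (9.39% and 12.9% of all genes). The mean of Sox9 was 76 times lower. The part of the list in that value, and in the falls of other genes given below, was not tested. The proliferation list (Mki67, Top2a and others) summed to 462 to 979 TPM in dormant WT and 390 to 536 in dormant KO, against 1603 to 1672 and 2002 to 2100 in the growing groups, with 1 of 12 genes called lower in dormant than in growing WT (5.67% of all genes) and 4 of 12 in KO hosts (9.48% of all genes).

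**Figure D4:**
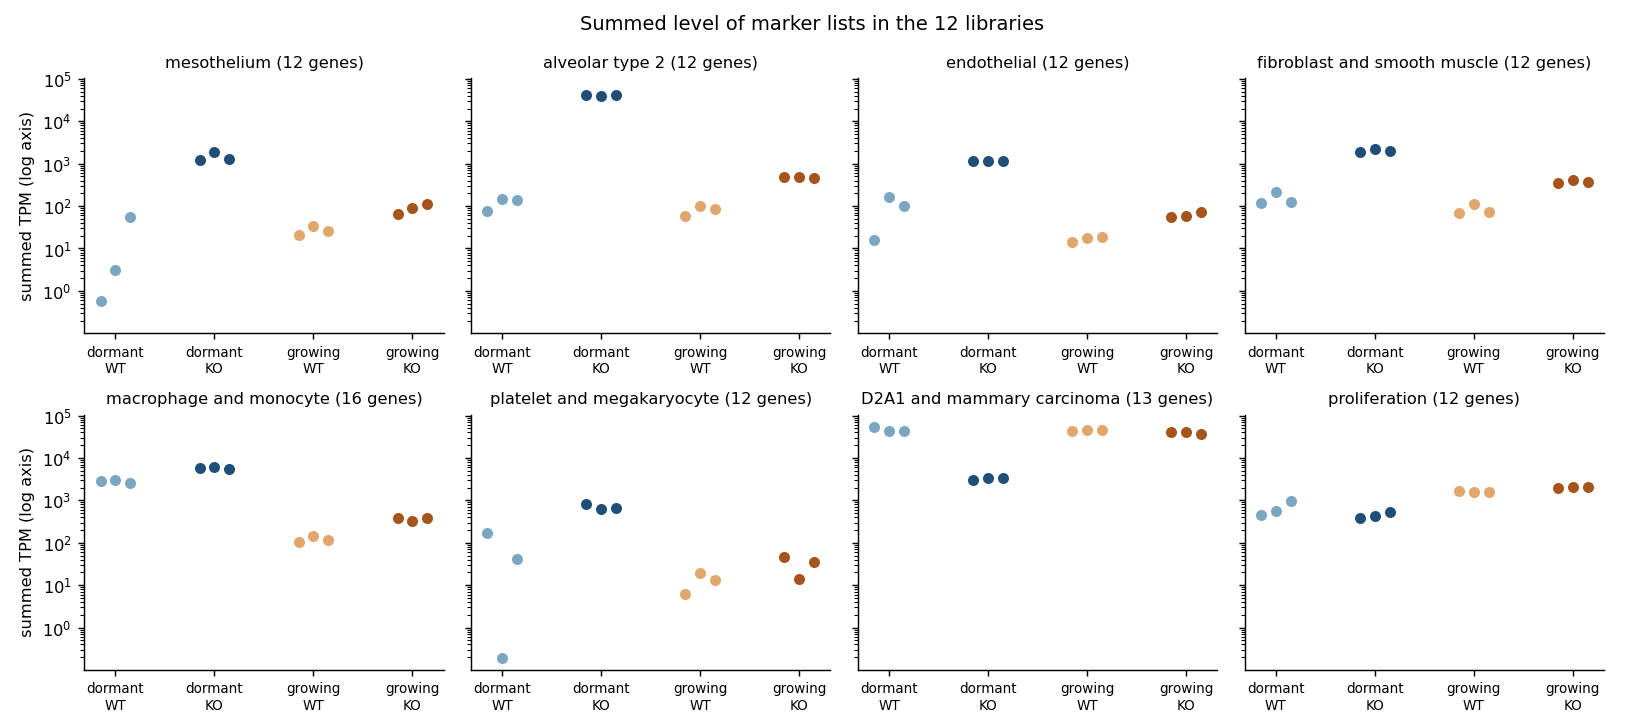
Summed TPM of 8 marker lists in each of the 12 libraries (points) on a log axis. Lists of lung and blood cells stand highest in dormant KO, where the D2A1 and mammary carcinoma list stands lowest (3045 to 3426 TPM).

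Of 25 genes for gamma-carboxylation, other receptor ligands, receptor shedding and signalling, 23 were tested, and in dormant KO against dormant WT 1 was called higher and 1 lower (12.9% and 9.39% of all genes), with a median difference of 0.38 beside 0.17 over all genes. Twf1, an actin-binding protein downstream of Axl, was lower (-2.35, adjusted p = 8.42e-05), with 55.81, 82.0 and 49.38 TPM in dormant KO against 392.49, 319.68 and 251.05 in dormant WT. Its interaction was -1.57 (adjusted p = 0.0226), which was lost without growing WT replicate 1, growing WT replicate 3 or growing KO replicate 2 (adjusted p of 0.0692, 0.0594 and 0.0614), and with median-ratio scaling (0.0835), quantile normalization (0.0618) and the replicate block (0.0726). Vkorc1l1, a vitamin K reductase, was higher (1.60, adjusted p = 0.0435), a call that held in 4 of 23 alternatives and in the fit without dormant WT replicate 3 alone among those leaving out a library. Adam10, a protease that sheds receptors, was higher in dormant than in growing WT (1.77, adjusted p = 0.0228), a call lost without any 1 of the growing WT libraries (adjusted p of 0.0519 to 0.0953) and in 7 of 23 alternatives in all. None of the 23 genes was called by limma between the growing groups or between the states of KO hosts, where 0.977% and 17.8% of all genes were called. At an unadjusted p under 0.05 there were 2 and 6 of the 23, beside 7.53% and 30.8% of all genes.

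Among 24 genes that expose phosphatidylserine or bind it by other receptors, 16 were tested, and 4 were called lower and 1 higher in dormant KO against dormant WT (9.39% and 12.9% of all genes), with a median of -1.03 beside 0.17 over all genes. None of the 16 was called by limma between the growing groups or between the states of WT hosts, where 0.977% and 7.51% of all genes were called. At an unadjusted p under 0.05 there were 1 and 3 of the 16, beside 7.53% and 23.9% of all genes. Mfge8, a secreted bridge between phosphatidylserine and integrins, had 27.91, 24.78 and 47.34 TPM in dormant KO and 116.41, 92.04 and 183.52 in dormant WT (-1.94, adjusted p = 0.00176). It was also lower than in growing KO (-1.89, adjusted p = 0.00252), so of these bridging proteins Gas6 and Mfge8 moved in opposite directions in dormant KO. Itgb5, an integrin chain that binds Mfge8, was lower against dormant WT (-2.60, adjusted p = 0.00239, and 0.0501 with array weights, which ended the call) and against growing KO (-2.60, adjusted p = 0.00303), with an interaction of -3.22 (adjusted p = 0.0123). The Mfge8 interaction of -2.04 (adjusted p = 0.0218) was lost without growing WT replicate 3, growing KO replicate 2 or growing KO replicate 3 (0.0668, 0.0534 and 0.0595), and with median-ratio scaling (-1.54, 0.0749), quantile normalization (-1.65, 0.0824) and the replicate block (0.0797). Scarf1, a scavenger receptor listed at 0 in all WT libraries, had 2.99, 4.46 and 2.57 TPM in dormant KO and 2.68, 0 and 0 in growing KO. Its call against growing KO (1.47, adjusted p = 0.0492) held in 2 of the 12 fits that leave out a library, those without dormant WT replicate 2 and without growing KO replicate 1.

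Of 44 other dormancy genes, 38 were tested, and 9 were called higher and 4 lower in dormant KO against dormant WT (12.9% and 9.39% of all genes), with a median of 0.67 beside 0.17 over all genes. Col3a1, a collagen that has been linked to dormancy and also serves in the fibroblast list, had 139.6, 196.08 and 154.94 TPM in dormant KO, 18.05, 27.18 and 33.48 in growing KO, 1.78, 0.31 and 0.21 in growing WT and 0 in all dormant WT libraries. It was also the gene of this list that was called between the growing groups (4.01, adjusted p = 0.00225, or 0.0592 with the replicate number as a block). Bmp4, a dormancy-inducing ligand, had 30.15, 45.53 and 42.59 TPM in dormant KO, at most 3.81 in any growing library and 0 in dormant WT, with an interaction of 4.87 (adjusted p = 0.00447). Cxcl12, the ligand of the homing receptor Cxcr4, had 15.73, 16.31 and 27.37 TPM in dormant KO and at most 3.3 elsewhere, with an interaction of 3.99 (adjusted p = 0.00906). The mesothelium, endothelial and fibroblast lists were also highest in dormant KO, and their part in the Col3a1, Bmp4 and Cxcl12 values was not tested. Bmpr2, a receptor for BMP ligands, was higher in dormant than in growing KO (2.94, adjusted p = 0.0124), but not without growing KO replicate 3 (0.0505). The Tgfb2 interaction of 3.53 (adjusted p = 0.0174), for a ligand known to hold disseminated cells quiet, was lost with quantile normalization (2.65, 0.15), array weights (0.0732), the replicate block (0.0614) and without growing KO replicate 2 (0.0513).

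Fn1 (fibronectin) and Bhlhe40, the close paralog of Bhlhe41, had the largest falls of that list in dormant KO against dormant WT. The mean of the D2A1 and mammary carcinoma list was 14.4 times lower between these groups, and its part in the falls was not tested. Fn1 had 22.05, 24.45 and 22.66 TPM in dormant KO against 296.55, 367.55 and 304.14 in dormant WT (-3.75, adjusted p = 2.33e-06), and was higher in dormant than in growing WT (2.16, adjusted p = 0.000562). Bhlhe40 had 15.32, 23.4 and 5.77 TPM in dormant KO, 83.09, 114.33 and 88.45 in growing KO, 178.26, 156.4 and 135.34 in dormant WT, and 84.08, 82.92 and 103.73 in growing WT. It was lower in dormant than in growing KO (-2.78, adjusted p = 0.000791) where Bhlhe41 was at 1.55, and its interaction was -3.56 (adjusted p = 0.00358) where that of Bhlhe41 was -0.05. In WT hosts, 4 of 38 genes were called lower and 1 higher in dormant than in growing cells (5.67% and 1.85% of all genes), and the lower ones with the largest differences were Dand5, an inhibitor of BMP ligands (-1.91, adjusted p = 0.00824), Rarb, a retinoic acid receptor of the Nr2f1 programme (-1.71, adjusted p = 0.0264), and Ddr1, a collagen receptor (-1.67, adjusted p = 0.0241). All 3 were at or near 0 in dormant WT, with at most 0.15 TPM. Of genes with a mean of 1 to 3 TPM in growing libraries, as these had, 40.6% to 53.8% were listed at 0 in a dormant WT library. The Dand5 call was lost with array weights (0.145), the replicate block (0.0538) and a pseudocount of 5 (-0.64). Leaving out dormant WT replicate 2, growing WT replicate 1 or growing WT replicate 2 ended the Rarb call (0.0505, 0.0983 and 0.0988), and leaving out any 1 growing WT library ended the Ddr1 call (0.071 to 0.0949). In all, the Rarb call was lost in 10 and the Ddr1 call in 8 of 22 alternatives.

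The genes whose pattern was most like that of a called gene were ranked by the root mean square difference from it over the 12 libraries, on log2(TPM + 1) with each gene centred on its own mean. For Gas6 these were Plxdc2 (0.334), Syce2 (0.495), Fam180a (0.508), C2 (0.538) and Ripply3 (0.555), where the median over all genes was 2.65. Plxdc2 had means of 0 and 61.2 TPM in the dormant groups (WT, then KO) and 0.04 and 5.28 in the growing groups, and C2, a complement component, 0.01, 90.7, 0.0133 and 6.86. For Sox9 they were RP23-18D18.1 (0.279), Luzp4 (0.429), Lpar1 (0.434), Exoc3l4 (0.442) and Plk2 (0.51), with a median of 1.71. Lpar1, a receptor for lysophosphatidic acid, had group means of 31.8, 0.703, 12.4 and 11.5 TPM in the same order. For Pros1 the most similar genes were less close, with Uimc1 (0.652), Stmn1 (0.658), Fam219b (0.664), Fam110a (0.687) and Rpl15-ps3 (0.69) against a median of 1.73. All libraries share their groups in these rankings, so the values describe likeness and carry no test.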

How the data were processed

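RNA from 12 libraries of sorted D2A1 cells was analysed, with groups and replicate numbers taken from the labels. The deposited values are TPM, which the authors made by trimming with Cutadapt, aligning to mm10 with STAR 2.5.2b and estimating genes of a GENCODE annotation with RSEM (per the processing notes Cutadapt 1.18 and RSEM 1.3.3). By the methods the libraries were made with Smart-seq2, but a TruSeq mRNA kit is named in the labels. TPM holds no depth, so the reads behind a value are unknown and precision rests on 3 libraries per group. The table also held 30 per-sample columns that match no labelled sample and were not used, 6 of them named as dormant or growing WT libraries of batch 2.

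Genes that reached 1 TPM in 3 or more libraries (13002 of 25916 above 0) were fitted by limma-trend (limma 3.58.1 in R 4.3.3) on log2(TPM + 1), with 1 mean for each of 4 groups. The error of a gene was estimated over all groups, so the wide spread in dormant WT also entered comparisons without that group. TPM is no count, so the count model of the methods was not used, and the thresholds (adjusted p of 0.05, log2 difference of 1) follow them. Differences on this scale understate the change of low genes. The fit was tested on simulated data. The 10 genes, 3 pathway lists (93 genes) and 12 marker lists (149 genes; 239 of the 241 distinct genes had a unique entry) were chosen with earlier results of these data known. All 10 genes were named, as were up to 4 called genes per pathway list and comparison and the 5 most similar genes of each called gene. The values of 1 list gene are not reported here. Alternatives were pseudocounts of 0.1 and 5, a 5 TPM minimum, no filter, quantile normalization, median-ratio scaling, array weights, fits restricted to the groups compared, a replicate block, an adjusted p of 0.01, no minimum difference and leaving out each library. Coordinates are GENCODE M21 on GRCm38, the build of mm10, and promoters are RefSeq GRCm38.p6.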

Additional observations from a re-analysis of the deposited data

Results flagged for a closer look

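The dormant against growing difference of Gas6 differed between hosts. It was 3.42 larger on the log2(TPM + 1) scale in KO than in WT hosts (adjusted p = 0.0156, limma interaction over 13002 genes), with Gas6 higher in dormant than in growing cells in all KO libraries and at or near 0 in all WT libraries. The call was lost in 5 of 22 alternatives (adjusted p of 0.108 with a pseudocount of 0.1, 0.0797 with the replicate block, 0.0547 with array weights, 0.0502 without growing WT replicate 1, and at a threshold of 0.01). Host and library batch cannot be told apart in the libraries used.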

How the results depend on the processing

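Over 23 alternatives, the higher Gas6 in dormant KO than in dormant WT (3.67 to 8.54) and in growing KO (2.71 to 4.05) and the lower Sox9 in dormant KO than in dormant WT (-5.43 to -1.66) kept their calls. Of the 8 genes tested, the number called changed as follows. Without single libraries it ran from 3 to 5 between the dormant groups (19.1% to 28% of all genes), 0 to 1 between states in WT hosts (3.48% to 14.8%), 2 to 3 between states in KO hosts (13.5% to 24%) and 0 to 2 for the interaction (6.69% to 15%). With a pseudocount of 0.1 it was 1 (Gas6) instead of 0 between the growing groups (1.03% of all genes) and 1 (Sox2, -4.13, adjusted p = 0.0303) instead of 0 between states in WT hosts (9.14%), and with array weights it was 2 between the growing groups (3.97% of all genes, against 0.977%). Between the dormant groups it was 2 with only the groups compared (12.9% of all genes) or array weights (10.9%), with Pros1 lost. Between states in KO hosts it was 1 instead of 2 with a pseudocount of 5 (16% of all genes), and 3, with Bhlhe41 added, with median-ratio scaling (16.6%), quantile normalization (17.1%), only the groups compared (24.1%) or array weights (27.6%). For the interaction it was 2 instead of 1 with a minimum of 5 TPM (12.4%) or quantile normalization (8.25%; Sox9 added), 0 at an adjusted p of 0.01 (4.73%) and 0 with the replicate block (5.15%). It stayed at 1, with Sox9 in place of Gas6, with a pseudocount of 0.1 (9.54% of all genes; Gas6 3.74, adjusted p = 0.108, and Sox9 -4.82, 0.0187) and with array weights (6.76%; Gas6 3.39, 0.0547, and Sox9 -2.98, 0.047).

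Deviations of same-numbered dormant and growing libraries from their group means correlated across genes at -0.0103, -0.0123 and 0.0142 in WT hosts. In KO hosts they correlated at 0.0206, 0.0192 and 0.0109. Differently numbered pairs ran from -0.0105 to 0.0191 in WT and from -0.0178 to -0.000528 in KO hosts. Values this close to 0 cannot decide whether same-numbered libraries came from the same mice. The replicate block moved the adjusted p of the Gas6 interaction (limma) from 0.0156 to 0.0797.

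Values that changed sign were all uncalled. For Mertk, dormant KO minus dormant WT was 0.03 with a pseudocount of 0.1 and -1.03 to 0.76 without single libraries, dormant minus growing WT was -0.54 to 1.26 without single libraries, and the interaction was -0.13 with a pseudocount of 5, -0.89 with quantile normalization and -0.33 to 1.46 without single libraries. For Sox2, growing KO minus growing WT was 0.11 with a pseudocount of 0.1, 0.00 with array weights and -0.45 to 0.43 without single libraries. For dormant minus growing WT, Gas6 was 0.58 with quantile normalization, 0.01 with array weights and -0.14 to 0.12 without single libraries, Thbs1 was 0.10 with a pseudocount of 5, 0.91 with quantile normalization and -1.47 to 0.54 without single libraries, and Sox9 was -0.30 to 0.78 without single libraries. Axl was 0.14 between states in KO hosts with median-ratio scaling and -0.17 to 0.15 between the growing groups without single libraries, and Pros1 was -0.35 to 0.49 between states in KO hosts. The Bhlhe41 interaction was 0.08 with a pseudocount of 0.1 or array weights, 0.39 with median-ratio scaling, 0.73 with quantile normalization and -0.66 to 0.32 without single libraries. The causes were not tested. Median-ratio scaling moved the median of all genes from 0.17 to 0.5 between the dormant groups and from 0.16 to 0.49 for the interaction, and quantile normalization moved it from -0.35 to 0.04 between states in WT hosts. TPM keeps no depth, and zeros in the dormant WT libraries limit every comparison with them.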
